A study of Mus musculus with 12 samples.

Results

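Expression of 9 genes for receptors and signalling molecules best known from natural killer (NK) cells was examined in mouse CD8+ T cells. The genes were Klrg1, Klrk1, Klrd1, Klrc1, Klrc2, Klre1, Nkg7, Fcer1g and Cd7. They were taken as the rows of the 2 deposited count tables whose identifiers carry these symbols in the GENCODE M21 annotation of GRCm38, and they make up 9 of the 55487 identifiers in each table.

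NK cells read their targets through paired activating and inhibitory receptors, many of them C-type lectin-like proteins encoded side by side on mouse chromosome 6. Activated and memory CD8+ T cells also take up such receptors, which then raise or lower the threshold set by the T cell receptor. Activating receptors signal through partner chains that carry tyrosine motifs, such as the Fc receptor gamma chain encoded by Fcer1g, whereas inhibitory receptors recruit phosphatases through motifs in their own tails.

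RNA was sequenced from 12 samples of splenic CD8+ T cells of OT-1 mice, whose CD8 T cells share 1 transgenic receptor against a peptide of ovalbumin, with 3 samples in each of 4 groups. Female and Male cells were stimulated for 3 days with beads coated with antibodies to CD3 and CD28 and with recombinant IL2. WT and KD cells were a separate batch, all male, that was electroporated and then cultured for 3 days in medium with IL2. Whether they were also activated with beads is not given in the sources used here. KD cells received Cas9 together with a guide RNA against Kdm5d, a histone demethylase gene on the Y chromosome, while WT cells were given the guide RNA alone. The effects of Cas9 itself and of the loss of Kdm5d therefore cannot be told apart in KD against WT. The age and number of the mice and the identity of the cultures are not given in the sources used here, so the p-values measure the spread between these samples, which may be technical. The 2 tables hold different batches of cells, and levels were not tested across them.

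Total counts ran from 78748647 to 110803318 per sample. Kdm5d was at 49.5 to 52.2 counts per 1000000 counts of a library (CPM) in Male, 48.4 to 52.4 CPM in WT and 21.4 to 22.9 CPM in KD, and at 0 to 2 counts in Female, so the libraries matched their labels. The 8 markers of CD8 T cells were counted in each group and summed to at least 1780 CPM in each library. Of 11 markers of NK cells, Cma1 was at 0 in each library, Klra8 at 0 in Female, Male and WT, and Ncr1 held at most 22 counts in any library. The libraries of a group held over 3 counts of 9 of the 11 in Female, 6 in Male, 8 in WT and 9 in KD. The NK marker sum was 66 to 69.5 CPM in Female, 116 to 121 in Male, 257 to 261 in WT and 245 to 253 in KD, and most of it came from Irf8, Itga2 and Gzmc, which other lymphocytes can express. Transcripts of 5 markers of gamma-delta T cells summed to 176 to 177 CPM in Female, 209 to 221 in Male, 342 to 345 in WT and 391 to 404 in KD. Markers of myeloid cells reached at most 2.84 CPM in sum, those of B cells 6.49 and those of CD4 T cells 6.31. Mast cell and basophil markers, of which Fcer1a and Ms4a2 were at 0 in Male, WT and KD, summed to at most 12.3 CPM. The part of any of these cells in the differences given below was not tested, and in bulk RNA fewer cells of a type cannot be told apart from less RNA per cell.

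Set per kilobase of annotated exon, Nkg7 had the highest level of the 9 genes in each of the 4 groups, with means of 241 CPM per kilobase in Female, 358 in Male, 620 in WT and 511 in KD. Klrd1 came second, at 32.7, 28.1, 90.7 and 48.9 CPM per kilobase in the same order. Klrg1 was last in each group, with 0.148 CPM per kilobase at most. Klrc2 and Klre1 stood directly above it in all 4 groups, and in KD the ranges of Klre1 and Klrg1 overlapped. The middle of the order moved between groups. Cd7 and Klrk1 overlapped in Female (5.45 and 5.55 CPM per kilobase), Cd7 and Fcer1g in Male (1.24 and 1.26) and in WT (9.31 and 9.02), and Cd7 and Klrc1 in KD (6.78 and 6.55). Klrc1 stood above Klrk1 in Male, at 6.9 against 6.07 CPM per kilobase. With the length of the principal transcript instead of all annotated exons, a choice made after the data were seen, the rest of the order differed. Nkg7, Klrd1 and Klrg1 kept their places. Klrk1 was then the third in all groups, and in Male it stood at 34.3 against 20 CPM per kilobase for Klrc1. In Female, Fcer1g stood between Klrc2 and Klre1 (0.662 against 1.93 and 0.56). In Male, Klrc2 stood above Fcer1g and Cd7 (3.52 against 1.63 and 1.44). Cd7 and Klrk1 were far apart in Female (6.28 and 31.4), as were Cd7 and Klrc1 in KD (7.82 and 19).

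**Figure D1:**
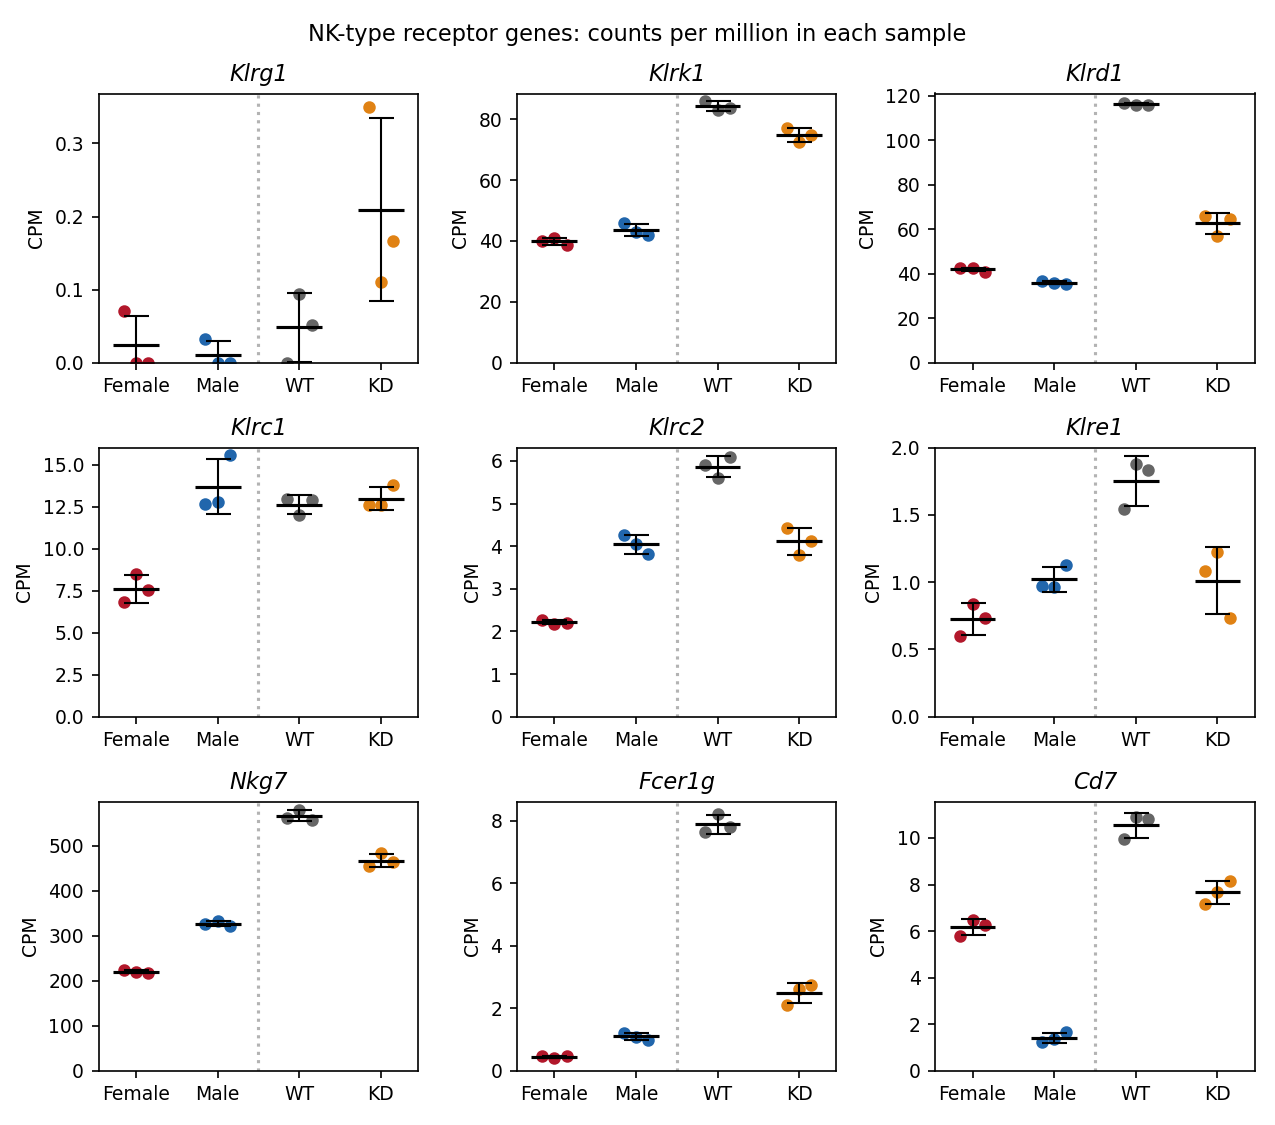
CPM (vertical axes, scaled to each gene) of the 9 genes in each of the 12 samples, with the mean (long bar) and SD (capped bar) of 3 samples per group. The dotted line separates the 2 tables, which come from different batches of cells. Nkg7 lies between 217 and 224 CPM in Female and between 322 and 332 in Male, and Fcer1g between 7.64 and 8.22 in WT and between 2.11 and 2.73 in KD.

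Start-site sequence of 6 of the genes, all but Klrg1, Klrd1 and Cd7, was taken from RefSeq promoter windows of GRCm38.p6, which hold 250 bases before and 50 after each start. There were 8 windows, since Klrc2 and Klre1 have a pair of start sites each. The windows of 4 genes are shown, ending 30 bases after the start: Nkg7 for its level, Fcer1g for its change in both comparisons, and Klrc1 with Klrc2 as neighbours of which both were called in one comparison and 1 in the other. They lie at chr7:43436888-43437167 (plus strand), chr1:171234320-171234599 (minus strand), chr6:129678944-129679223 (minus strand) and chr6:129660567-129660846 (minus strand). Each is written 5′ to 3′ along the gene, and capitals mark matches to the motifs named after them.
Nkg7: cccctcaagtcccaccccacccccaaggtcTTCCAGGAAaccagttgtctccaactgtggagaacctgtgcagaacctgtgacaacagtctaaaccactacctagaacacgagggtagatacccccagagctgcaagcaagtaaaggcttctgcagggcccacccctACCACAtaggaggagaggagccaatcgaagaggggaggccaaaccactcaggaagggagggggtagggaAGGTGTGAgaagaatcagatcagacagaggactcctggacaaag
Fcer1g: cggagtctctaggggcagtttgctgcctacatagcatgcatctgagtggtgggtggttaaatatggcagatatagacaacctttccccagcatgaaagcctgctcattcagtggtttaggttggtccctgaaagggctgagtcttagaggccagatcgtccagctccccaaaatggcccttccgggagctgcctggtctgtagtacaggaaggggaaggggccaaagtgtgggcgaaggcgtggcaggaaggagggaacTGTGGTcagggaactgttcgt
Klrc1: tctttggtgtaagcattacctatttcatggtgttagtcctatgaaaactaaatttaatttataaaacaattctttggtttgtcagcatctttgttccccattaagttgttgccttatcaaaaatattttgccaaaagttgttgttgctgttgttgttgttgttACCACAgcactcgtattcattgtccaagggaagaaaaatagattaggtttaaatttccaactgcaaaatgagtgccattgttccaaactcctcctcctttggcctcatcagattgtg
Klrc2: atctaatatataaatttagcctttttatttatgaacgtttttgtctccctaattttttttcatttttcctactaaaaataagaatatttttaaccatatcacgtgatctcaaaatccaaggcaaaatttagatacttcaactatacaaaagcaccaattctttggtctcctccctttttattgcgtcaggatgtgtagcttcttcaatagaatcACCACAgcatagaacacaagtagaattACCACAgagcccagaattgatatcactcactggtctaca
The motifs searched on both strands of the full windows were TGTGGT for RUNX factors, AGGTGTGA for T-box factors, TTCNNNGAA for STAT factors, GGAAGT for ETS factors and, for the core of the interferon response element, GAAA followed 2 bases later by GAAA. The RUNX letters occurred in 7 of the 8 windows and in 6 of the 6 genes. They were in 16.8% of 32851 mouse promoter windows of the same length, a share per window and not per gene. The 2 windows of Klrc2 overlap and hold the same 2 matches. In the printed windows the RUNX letters are read as ACCACA on the reverse strand in Nkg7, Klrc1 and Klrc2, and as TGTGGT in Fcer1g. The T-box and STAT letters occurred in the Nkg7 window alone of the 8, against 1.28% and 8.3% of all windows. The ETS letters (23.8% of all windows) and the interferon letters (3.44%) were in none of the 8. The motifs were chosen after the windows were seen, so their shares are a description and not a test. These are matches of letters, and binding was not measured.

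The first comparison set Male against Female cells, both activated for 3 days. Nkg7, Klrc1, Klrc2, Fcer1g and, by a small margin, Klrk1 were higher in Male, while Cd7 and Klrd1 were lower. The largest differences were in Cd7, which stood in Male at 22.9% of its Female level, and in Fcer1g, which was 2.46-fold higher in Male. Klrc1 was 1.8-fold and Klrc2 1.82-fold higher, and Nkg7 was 1.48-fold higher. Summed over the 9 genes, the libraries held 314.1 to 322.2 CPM in Female and 422.1 to 431 in Male, most of it from Nkg7. The summed NK and gamma-delta T markers given above were higher in Male too, and their part was not tested. The NK markers were split: of 5 tested, 2 were called higher and 2 lower in Male. Klri2, among the lower, lost its call with no low-count filter, with DESeq2's test and with the replicate block. The split was then 2 higher and 1 lower. Irf8, whose values are given below, was among the higher. Of 5 gamma-delta T markers tested, 4 were called higher and 0 lower. The shares over all genes tested were 23.5% higher and 26.3% lower.

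Of the 9 genes, 8 passed the low-count filter and 7 were called at an adjusted p under 0.05, 5 of them higher and 2 lower in Male. Over all 20208 genes tested, 49.8% were called, 23.5% as higher and 26.3% as lower. The groups did not overlap for the 8 genes tested, against 58.3% of all genes. Their log2 fold changes had a median of 0.53, against 0.0106 over all genes tested. A log2 fold change of at least 1 in size was reached by 2 of the called genes, Fcer1g and Cd7, against 7.28% of all genes tested. Klrg1 did not pass the filter.

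The second comparison set KD against WT cells. Each of the 7 genes that were called was lower in KD, and none was higher. Fcer1g stood at 31.6% of its WT level, Klrd1 at 53.9%, Klre1 at 57.6%, Klrc2 at 70.1%, Cd7 at 72.8%, Nkg7 at 82.5% and Klrk1 at 88.8%. Klrc1 and Klrg1 were not called. The sum over the 9 genes was 795.8 to 818 CPM in WT and 624.8 to 641 in KD. The summed NK markers were lower in KD as well and the gamma-delta T markers higher, and their part was not tested. Of 6 NK markers tested, 0 were called higher and 4 lower in KD. This split was 1 higher and 4 lower with upper-quartile factors, and 1 and 2 with a filter at a mean log2 CPM of 1. Of 5 gamma-delta T markers tested, 4 were called higher and 0 lower in KD. Over all genes tested, 16.8% were called higher and 18.4% lower.

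Each of the 9 genes passed the filter in this table, Klrg1 through its counts in KD. The share of genes called was 35.1% of 20413 over the whole table, 16.8% as higher and 18.4% as lower in KD. Klrg1, which had under 10 counts in each WT library, is therefore left out of the next pair of values. The groups did not overlap for 7 of the other 8 genes, against 46.8% of all genes, and overlapped for Klrc1. The log2 fold changes of these 8 had a median of -0.49, against 0.0124 over all genes tested. Of the called genes 1, Fcer1g, had a log2 fold change of at least 1 in size, against 3.96% of all genes tested. Set beside the first comparison, Klrk1, Klrc2, Nkg7 and Fcer1g were higher in Male but lower in KD by these calls, while Klrd1 and Cd7 were lower in both. The difference between the comparisons was not tested, and the cells differed in electroporation and may have differed in activation.

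Klrd1 (ENSMUSG00000030165, chromosome 6, 129591782 to 129598775, plus strand) encodes CD94, the invariant partner with which NKG2 proteins form receptors for the non-classical MHC molecule Qa-1. It was at 42.4, 42.4 and 41 CPM in Female and at 36.8, 35.9 and 35.4 CPM in Male. The lowest Female library stood above the highest Male one. The log2 fold change of Male against Female was -0.22 (standard error 0.034, edgeR adjusted p 0.000293). In WT the libraries held 117, 116 and 116 CPM, and in KD 66, 57.1 and 64.8 CPM. The WT libraries lay close together and far above those of KD, for a log2 fold change of -0.89 (standard error 0.049, edgeR adjusted p 3.95e-07).

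Klrc1 (ENSMUSG00000030167, chromosome 6, 129666015 to 129678973, minus strand) encodes NKG2A, the inhibitory partner of CD94. Klrc1 was at 6.83, 8.51 and 7.53 CPM in Female and at 12.7, 12.8 and 15.6 CPM in Male. No Male library fell near the Female range, and the log2 fold change was 0.84 (standard error 0.1, edgeR adjusted p 6.55e-05). WT libraries held 13, 12 and 12.9 CPM and KD libraries 12.6, 12.6 and 13.8 CPM, so that the groups overlapped. The log2 fold change of KD against WT was 0.04 (standard error 0.062, 95% interval -0.08 to 0.16, edgeR adjusted p 0.681).

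Klrc2 (ENSMUSG00000052736, chromosome 6, 129647496 to 129660689, minus strand) encodes NKG2C, the activating counterpart of NKG2A. Its level was 2.27, 2.18 and 2.2 CPM in Female and 4.26, 4.06 and 3.81 CPM in Male. The Female libraries hardly varied, and the log2 fold change of Male against Female was 0.87 (standard error 0.12, edgeR adjusted p 0.000121). WT libraries were at 5.9, 5.6 and 6.1 CPM and KD libraries at 4.43, 3.79 and 4.13 CPM. The groups were apart, with a log2 fold change of -0.51 for KD against WT (standard error 0.099, edgeR adjusted p 0.00229). Klrc1 and Klrc2 are close copies: 53.1% of the 31-base subsequences of Klrc1 transcripts and 21.6% of those of Klrc2 also occur in another gene, mainly each other and Klrc3, so a read may have been assigned to either and their counts are uncertain. For the other 7 genes the share was 0.6% or less.

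Because both NKG2 proteins use CD94, the balance of Klrc1 to Klrc2 was followed as the log2 ratio of their counts in each sample, which does not depend on library size. The ratio was 1.59, 1.96 and 1.77 in Female and 1.58, 1.65 and 2.03 in Male. These ranges overlapped almost wholly, and the difference of Male minus Female was -0.02 (exact two-sided permutation p 0.9). In WT the ratio was 1.14, 1.10 and 1.09, and in KD it was 1.51, 1.73 and 1.74. The WT samples were nearly alike and lay below each KD sample, and the difference of KD minus WT was 0.55 with an exact two-sided permutation p of 0.1, the smallest that 3 against 3 samples allow.

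**Figure D2:**
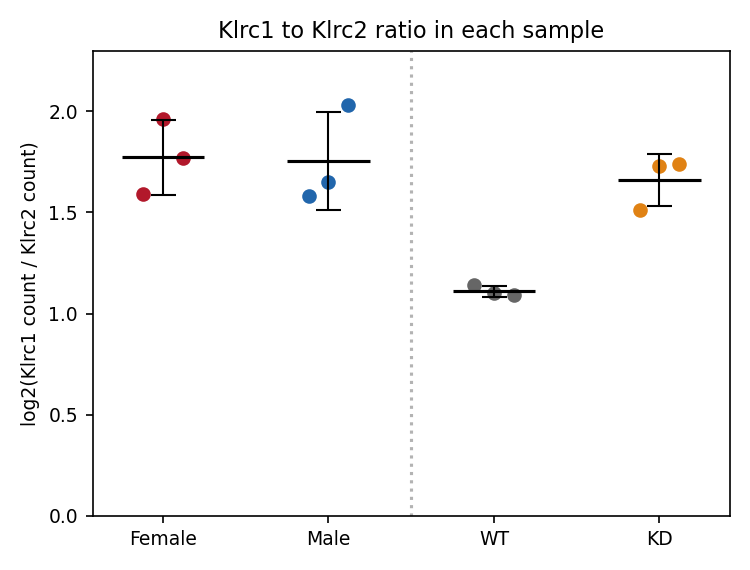
Log2 ratio of Klrc1 to Klrc2 counts (vertical axis) in each sample, with the mean and SD of 3 samples per group. WT samples lie between 1.09 and 1.14, below the KD samples at 1.51 to 1.74, while Female and Male samples overlap.

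Klre1 (ENSMUSG00000050241, chromosome 6, 129577905 to 129585827, plus strand) encodes a lectin-like receptor that pairs with the products of the neighbouring Klri genes. In Female it was at 0.602, 0.84 and 0.73 CPM and in Male at 0.973, 0.961 and 1.13 CPM. The groups did not overlap, yet the log2 fold change of 0.49 did not pass the threshold (standard error 0.21, 95% interval 0.08 to 0.91, edgeR adjusted p 0.0818). WT libraries held 1.54, 1.88 and 1.83 CPM and KD libraries 1.08, 1.22 and 0.735 CPM. KD was lower throughout, with a log2 fold change of -0.79 (standard error 0.21, edgeR adjusted p 0.015). That call rests on 71 to 181 counts per library and was lost without WT replicate 2 (edgeR adjusted p 0.0528) or WT replicate 3 (0.0501). Over the alternatives that kept all samples it ran from 0.00398 to 0.0254.

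Klrk1 (ENSMUSG00000030149, chromosome 6, 129610323 to 129623864, minus strand) encodes NKG2D, an activating receptor for stress-induced ligands. It was at 39.9, 40.9 and 38.8 CPM in Female and at 45.8, 43 and 42 CPM in Male. The ranges stood just apart, and the log2 fold change was 0.13 (standard error 0.041, edgeR adjusted p 0.022). That small difference was not called without the low-count filter (edgeR adjusted p 0.0591) or without Female replicate 1, Female replicate 3 or Male replicate 1 (0.0693, 0.0893 and 0.101). In WT, Klrk1 was at 86.1, 83.1 and 83.8 CPM, and in KD at 77, 72.6 and 74.9 CPM. KD was lower in each sample, with a log2 fold change of -0.17 (standard error 0.032, edgeR adjusted p 0.00172).

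Klrg1 (ENSMUSG00000030114, chromosome 6, 122270596 to 122282882, minus strand) encodes an inhibitory receptor for cadherins that marks terminally differentiated effector cells, and it lies outside the lectin cluster proper. Its counts were 6, 0 and 0 in Female and 3, 0 and 0 in Male. A count of 0 allows up to 3 counts, or 0.0311 to 0.0341 CPM in these libraries, counting error only, so no fold is given (exact two-sided permutation p of the CPM 1). WT libraries held 0, 9 and 5 counts and KD libraries 28, 12 and 16. Each KD library was above each WT library, but the log2 fold change of 2.10 did not pass the threshold (standard error 0.85, 95% interval 0.42 to 3.77, edgeR adjusted p 0.087). It was called in none of 8 alternatives that kept the gene (adjusted p 0.0521 to 0.194) and in none of 6 fits that left out a sample (0.0721 to 0.308).

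Nkg7 (ENSMUSG00000004612, chromosome 7, 43437073 to 43438249, plus strand) encodes a membrane protein of cytotoxic granules that is needed for their release. Nkg7 was at 224, 220 and 217 CPM in Female and at 327, 332 and 322 CPM in Male. Replicates differed by a few percent and the groups were far apart, with a log2 fold change of 0.57 (standard error 0.021, edgeR adjusted p 9.29e-09). WT libraries were at 562, 580 and 557 CPM and KD libraries at 454, 483 and 463 CPM. The lowest WT library was above the highest KD library, and the log2 fold change was -0.28 (standard error 0.025, edgeR adjusted p 1.47e-05).

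Fcer1g (ENSMUSG00000058715, chromosome 1, 171229572 to 171234365, minus strand) encodes the gamma chain that couples Fc receptors and some NK receptors to Syk-family kinases. In Female it was at 0.46, 0.415 and 0.463 CPM, which is 39 to 45 counts, and in Male at 1.22, 1.08 and 0.995 CPM. The Male libraries all lay above those of Female, with a log2 fold change of 1.30 (standard error 0.21, edgeR adjusted p 0.000485). In WT it was at 7.64, 8.22 and 7.79 CPM and in KD at 2.11, 2.62 and 2.73 CPM. This was the largest fall of the 9 genes in KD, with a log2 fold change of -1.66 (standard error 0.11, edgeR adjusted p 2.02e-06). Fcer1g is also abundant in mast cells, basophils and myeloid cells. Of 6 mast cell and basophil markers, Kit, Mcpt8, Cpa3 and Gata2 had over 3 counts in a WT library and Fcer1a and Ms4a2 were at 0 there. Nearly all of their sum was Kit, at a mean of 9.03 CPM in WT and 11.8 in KD. Of 9 myeloid markers, Csf1r, Mpeg1, Lyz2, Cd14 and Fcgr1 had over 3 counts in a WT library, led by Mpeg1 at a mean of 0.67 CPM, and Adgre1, Clec7a, S100a8 and S100a9 were at 0. The mast cell and basophil markers summed to 8.5 to 9.67 CPM in WT and 11.4 to 12.3 in KD, and the myeloid markers to 0.795 to 1.48 in WT and 2.03 to 2.84 in KD. In the other table the mast cell and basophil sum was 3.99 to 4.92 CPM in Female and 2.33 to 2.96 in Male, and the myeloid sum was 0.153 to 0.72 in Female and 0.871 to 1.08 in Male. The part of these cells in the Fcer1g differences was not tested in either comparison.

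Cd7 (ENSMUSG00000025163, chromosome 11, 121036747 to 121039418, minus strand) encodes an immunoglobulin-family surface molecule of T and NK cells. Cd7 was at 5.78, 6.46 and 6.27 CPM in Female and at 1.24, 1.34 and 1.65 CPM in Male. The Female libraries were each several-fold above those of Male, and the log2 fold change was -2.13 (standard error 0.14, edgeR adjusted p 4.6e-07). WT libraries held 9.94, 10.9 and 10.8 CPM and KD libraries 7.18, 7.68 and 8.17 CPM. The groups were apart here too, with a log2 fold change of -0.46 (standard error 0.075, edgeR adjusted p 0.000837). An antisense gene, Gm11775, overlaps 122 exon bases of Cd7, and the strand setting of the counting is not given in the sources used here, so reads of the pair may not be separated.

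Klrd1, Klrc1, Klrc2, Klre1 and Klrk1 sit in a cluster of lectin-like receptor genes on chromosome 6. It was taken from the first to the last gene there of the Klra, Klrb, Klrc, Klrd, Klre, Klri, Klrk or Clec2 families, at 128609227 to 131247362, and holds 120 annotated genes. In Male against Female, 27 of these were tested, 9 were higher and 10 lower, with a median of 0.052 on the log2 scale. Without the 5 receptor genes the count was 6 higher and 9 lower of 22, with a median of -0.06. These 22 include Klrb1b and Clec2f, which had no count in Male and passed the filter through Female alone. Such genes could only be called lower, so the sign of this median is not read as a result. Over all genes tested, 23.5% were called higher and 26.3% lower in Male. Between KD and WT, 29 genes of the cluster were tested, 2 were higher and 13 lower, with a median of -0.3. Leaving out the same 5 genes gave 2 higher and 9 lower of 24, with a median of -0.28, against 16.8% of all genes higher and 18.4% lower in KD. These shares of all genes are also the background for the counts of each list that follows. Neighbours did not all move one way: BC035044, a protein-coding gene of the cluster, was higher in Male (26.5 against 13.2 CPM, log2 fold change 1.00, edgeR adjusted p 5.24e-08), while Clec2i was lower there (53 against 76.7 CPM, log2 fold change -0.53, edgeR adjusted p 6.34e-07) and higher in KD (50.8 against 41.5 CPM, log2 fold change 0.29, edgeR adjusted p 0.000918). The spans of BC035044 and Clec2i overlap on opposite strands. Gm44078 and Gm8774, also counted as higher in Male, lie within the span of BC035044. Since the strand setting of the counting is not given, reads of these genes may not be separated.

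**Figure D3:**
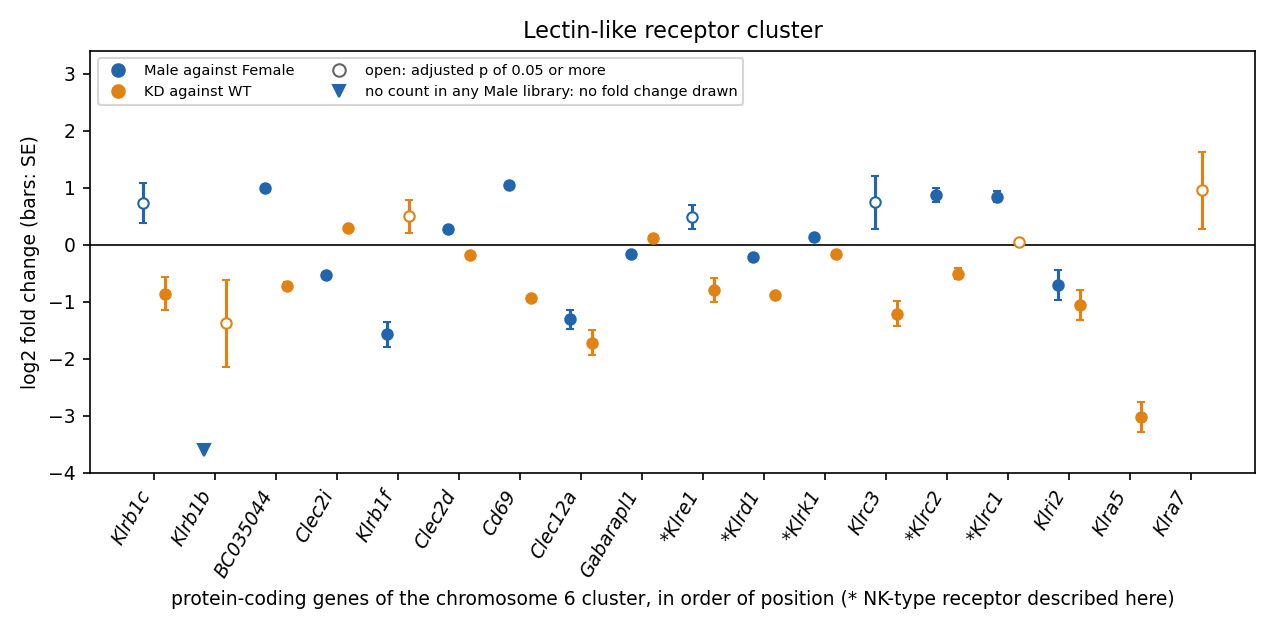
Log2 fold change with its standard error (vertical axis) of the tested protein-coding genes of the chromosome 6 lectin cluster, in order of position, for Male against Female (blue) and KD against WT (orange); asterisks mark Klre1, Klrd1, Klrk1, Klrc2 and Klrc1, and open symbols did not pass an adjusted p of 0.05. The triangle marks Klrb1b, which had no count in Male, so its height is not a value. The lowest point is Klra5 in KD against WT at -3.02.

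Other lectin-like NK receptors were mostly at or near 0. Of 21 listed genes 20 were matched, and 6 were tested in Male against Female, none higher and 3 lower in Male (median log2 fold change -0.32, also with Klrb1b at its bound). Klrb1b passed the low-count filter through Female alone, so it could only be called lower in Male. This inhibitory receptor of the NKR-P1 family had no count in Male and 26 to 33 counts in Female. It was at least 9.5-fold higher in Female against a floor of 3 counts per library. Klrb1f, an activating receptor of that family, had 0.773 CPM ± 0.19 in Male against 2.3 CPM ± 0.312 in Female (SD, n = 3), with a log2 fold change of -1.57 (adjusted p 0.000138 in edgeR). Between KD and WT, 8 were tested, none higher and 4 lower in KD, with a median of -0.96. Klra5, a Ly49 receptor, fell from 5.2 CPM ± 0.328 in WT to 0.628 CPM ± 0.287 in KD (SD, n = 3), with a log2 fold change of -3.02 (adjusted p 9.79e-06 in edgeR). Ly49 genes are close copies of one another, so its count is uncertain. Klrc3, another gene of the NKG2 family, fell from 0.942 to 0.405 CPM (log2 fold change -1.21, edgeR adjusted p 0.00187). It shares sequence with Klrc1 and Klrc2, as given above, so its count is uncertain too. Klri2, a partner of Klre1, was lower in both comparisons, with log2 fold changes of -0.71 in Male (edgeR adjusted p 0.0476) and -1.06 in KD (edgeR adjusted p 0.00902). The call in Male was lost with no low-count filter, with DESeq2's test, with the replicate block and without any 1 sample other than Male replicate 3, with adjusted p from 0.0576 to 0.146.

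Among other receptors shared by NK and T cells, 15 were tested in Male against Female, of which 10 were higher and 4 lower in Male, with a median log2 fold change of 0.64. Slamf7, a self-binding activating receptor, stood at 81.6 CPM in Male against 24.9 in Female (log2 fold change 1.71, edgeR adjusted p 4.47e-10). Il2rb, the IL2 and IL15 receptor beta chain, was higher in Male with a log2 fold change of 0.75 (adjusted p 2.14e-10 in edgeR), and Cd69, an early activation antigen encoded in the lectin cluster, with one of 1.05 (edgeR adjusted p 3.52e-09). Lower in Male were Slamf6, another SLAM receptor (35.9 against 102 CPM, log2 fold change -1.51, edgeR adjusted p 1.86e-10), the inhibitory receptor Tigit (-0.96, edgeR adjusted p 7.57e-08) and the costimulatory receptor Cd27 (-0.65, edgeR adjusted p 2e-08).

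In KD against WT, 17 of these receptors were tested, 1 was higher and 10 were lower in KD, with a median log2 fold change of -0.27. The gene that rose was Slamf6, from 18.7 to 30 CPM (log2 fold change 0.69, edgeR adjusted p 1.88e-06). Cd244a, which encodes the SLAM receptor 2B4, fell from 51.9 CPM ± 1.08 to 19 CPM ± 0.341 (SD, n = 3), with a log2 fold change of -1.45 (adjusted p 3.6e-09 in edgeR). Cd160, an immunoglobulin-like receptor, fell from 97.3 to 48.2 CPM (log2 fold change -1.01, edgeR adjusted p 3.68e-09) and Cd69 from 133 to 69.6 CPM (log2 fold change -0.93, edgeR adjusted p 6.02e-09).

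Adaptor chains carry the signal of receptors that lack motifs of their own. Of 6 tested in Male against Female, 1 was higher and 1 lower: Hcst, which encodes the NKG2D adaptor DAP10, stood at 8.83 CPM in Male against 6.54 in Female (log2 fold change 0.43, edgeR adjusted p 0.00331), and Cd247, the CD3 zeta chain, at 151 and 187 CPM (log2 fold change -0.31, edgeR adjusted p 6.21e-07). In KD, 3 of the 6 were lower than in WT, namely Cd247 (-0.39), Cd3g (-0.35) and Cd3e (-0.11), and none was higher. Tyrobp, the DAP12 adaptor of activating lectins, was named after its values were seen: it was below 1 CPM in each group mean (0.249 in Female, 0.312 in Male, 0.717 in WT and 0.655 in KD) and was not called in either comparison (edgeR adjusted p 0.615 and 0.727).

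Of the kinases, linkers and phosphatases downstream of these receptors, 20 were tested in Male against Female, 11 were higher and 8 lower in Male, with a median log2 fold change of 0.14. Inpp5d, the inositol phosphatase SHIP1, stood at 193 CPM in Male against 118 in Female (log2 fold change 0.71, edgeR adjusted p 4.28e-09), and the linker Lat and the kinase Fyn were higher by 0.48 and 0.38 on the log2 scale. Pik3cd, Sh2d1a and Vav2 were lower in Male, with log2 fold changes of -0.29, -0.87 and -0.68. Of the 22 tested between KD and WT, 1 was higher and 16 were lower in KD, with a median of -0.28. The kinases Lck and Fyn had log2 fold changes of -0.36 and -0.45 (edgeR adjusted p 1.04e-07 and 4.19e-07), and Inpp5d one of -0.47 (edgeR adjusted p 1.75e-07). Vav2, an exchange factor, was the gene that rose, from 8.29 to 14.3 CPM (log2 fold change 0.78, edgeR adjusted p 2.19e-05).

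Genes for ligands of the receptors were also counted in these libraries. Of 9 tested in Male against Female, 3 were higher and 3 lower, with a median of -0.3, also with Clec2f at its bound. Clec2f, counted among the lower genes, is a transcribed unprocessed pseudogene in the annotation used here. It had no count in Male and passed the filter through Female alone, so it could only be called lower in Male. Of 8 tested in KD against WT, 2 were higher and 3 lower, with a median of -0.14. H2-T23, which encodes the Qa-1 heavy chain bound by CD94 with NKG2, stood at 172 CPM in Male against 110 in Female (log2 fold change 0.65, edgeR adjusted p 2.51e-08) and at 117 CPM in KD and 136 in WT (log2 fold change -0.21, edgeR adjusted p 0.000122). Ulbp1, an NKG2D ligand, went the other way, with log2 fold changes of -0.40 and 0.15 (edgeR adjusted p 1.38e-07 and 0.000802). Cdh1, the E-cadherin bound by KLRG1, stood at 8.15 CPM in Male against 2.22 in Female (log2 fold change 1.88, edgeR adjusted p 5.98e-07), and fell from 58 CPM in WT to 21.5 in KD (log2 fold change -1.43, edgeR adjusted p 3.6e-09).

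Transcription factors with a known part in NK or effector CD8 programmes were listed last. In Male against Female, 4 of 18 were higher and 11 lower, with a median log2 fold change of -0.29. Eomes, a T-box factor, stood at 120 CPM in Male against 37.3 in Female (log2 fold change 1.69, edgeR adjusted p 3.47e-10), Id2 at 77.7 and 29.9 CPM (1.38, edgeR adjusted p 1.43e-09) and Irf8 at 94.9 and 42.7 CPM (1.15, edgeR adjusted p 1.41e-09). Tcf7, a factor of naive and memory cells, was at 154 and 420 CPM (-1.45, edgeR adjusted p 2.07e-11), and Bach2 and Ikzf2 had log2 fold changes of -1.48 and -1.60. In KD against WT, 2 of 18 were higher and 7 lower, with a median of 0.026. This split turned with the scaling or filter: it was 6 higher and 5 lower with upper-quartile factors and 5 and 6 with a filter at a mean log2 CPM of 1. Runx3, a RUNX factor of CD8 cells, fell from 328 to 205 CPM (log2 fold change -0.67, edgeR adjusted p 1.55e-08), Stat4 from 149 to 94.5 CPM (-0.66, edgeR adjusted p 2.65e-08) and Id2 from 209 to 131 CPM (-0.67, edgeR adjusted p 2.02e-07). Tcf7 and Prdm1 were higher in KD, by 0.30 and 0.27 on the log2 scale. Eomes, which was among the most altered factors in Male, had a log2 fold change of 0.03 in KD (edgeR adjusted p 0.321).

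**Figure D4:**
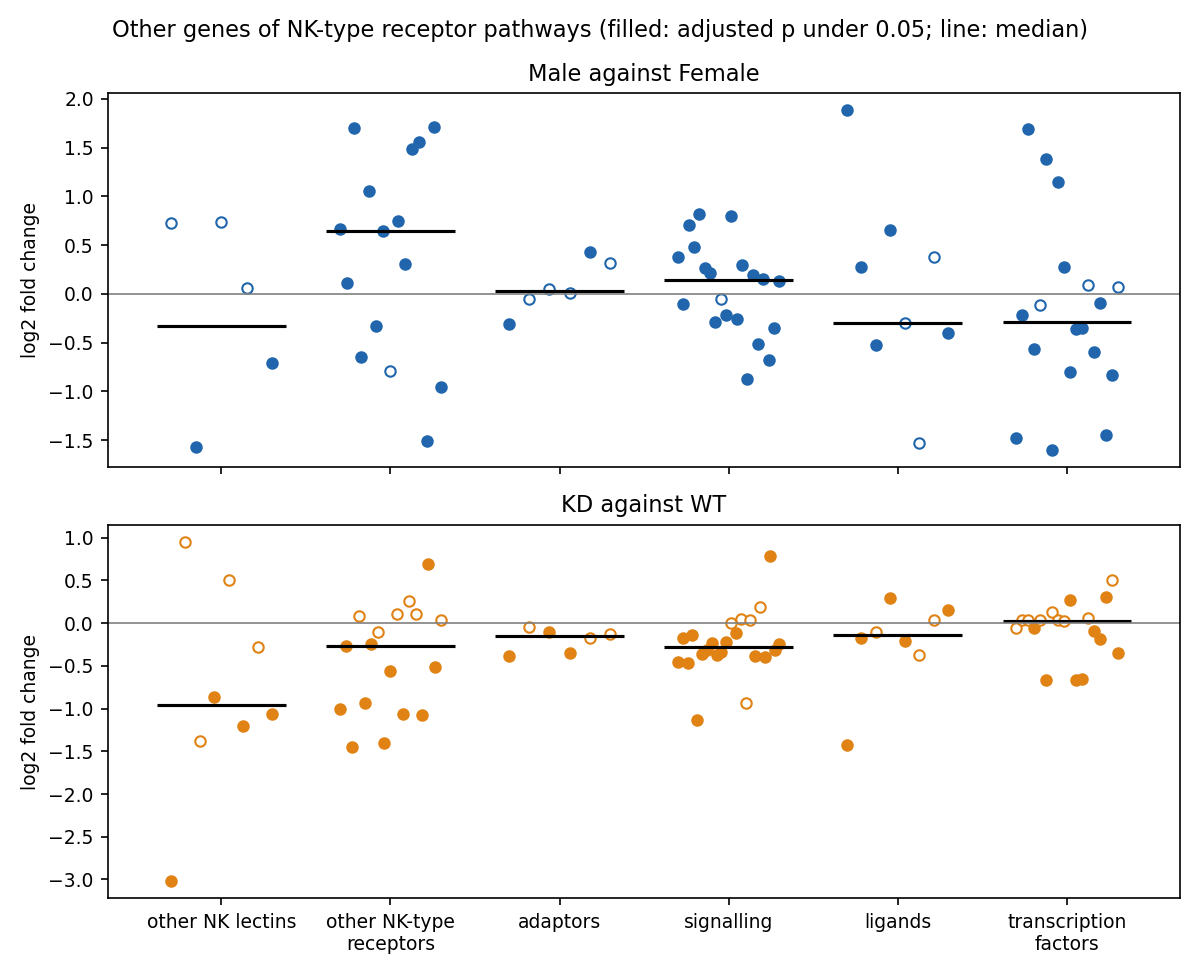
Log2 fold change (vertical axes) of the tested genes of 6 lists around the receptors, for Male against Female (upper panel) and KD against WT (lower panel); each point is a gene, filled where the adjusted p was under 0.05, and the line is the list's median. Klrb1b and Clec2f, which had no count in Male, are left out of the upper panel but counted in the medians. The median of other shared receptors is 0.64 in the upper panel and -0.27 in the lower one.

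Across the 12 samples, with each gene's log2 CPM centred on the mean of its table, the 8 genes tested in both comparisons did not all vary alike. Pearson's r between pairs of them ran from -0.89 for Klrc1 with Cd7 to 0.96 for Klrc2 with Nkg7. These samples share libraries and group differences, so r is a description. Of 9071 expressed genes outside the X and Y chromosomes, the closest in pattern to Nkg7 was the amino acid transporter gene Slc7a5 (r 0.996), to Klrd1 the Rab GTPase gene Rab8b (0.996), to Fcer1g the lymphocyte GTPase gene Gimap4 (0.997), and to Cd7 the gene Atxn1 (0.994). Klrc2 was closest to Tram1 (0.995) and then to its cluster neighbour BC035044 (0.991). Klrc1 was closest to Rbpj, the DNA-binding partner of Notch (0.989), Klrk1 to Snx2 (0.958) and Klre1 to Tbc1d22b (0.931). Pearson's r takes no account of the size of a change. In Male and in KD, Gimap4 had log2 fold changes of 0.20 and -0.37, against 1.30 and -1.66 for Fcer1g. Slc7a5 changed more than Nkg7, with 0.87 and -0.41 against 0.57 and -0.28.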

How the data were processed

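RNA was purified with a QIAGEN RNeasy Plus Universal kit and made into Illumina stranded libraries after ribosomal depletion, per the labels' protocols. The submitters' processing notes name mm10, bcl2fastq 2.20.0, HISAT2, StringTie and DESeq2. The annotation, the counting and its strand setting are not given in the sources used here. The authors deposited whole-number counts per gene in 2 tables, of whose 55487 identifiers 55227 matched GENCODE M21.

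Counts of each table were fitted separately in R 4.3.3 by the quasi-likelihood test of edgeR 4.0.16, after filterByExpr (minimum count 10) and TMM scaling, with Benjamini-Hochberg adjustment over all genes tested, called under 0.05. Standard errors are the absolute log2 fold change over the square root of F, and 95% intervals are 1.96 of them. These intervals use a normal approximation, which makes them too narrow for 3 against 3 samples. They are not adjusted for the number of genes tested, so one may leave out 0 for a gene that was not called. CPM use TMM-scaled totals. Likeness used log2 CPM with a pseudocount of 0.5 and a mean log2 CPM of at least 3.

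The members, lists and naming rule (of each list, the 3 genes called with the smallest p in each direction and comparison; the 2 genes most alike to each member) were chosen with earlier results of these data known, and the motifs after the windows were seen. Klrh1 and H60a were not matched, and Cd244 is an older name of Cd244a. Clec2l, far from the rest, was left out of the cluster. Alternatives changed scaling, filter, test (DESeq2 1.42.0, limma-voom 3.58.1), threshold, depth, counts divided by 4, all 12 samples, the replicate block and each sample left out. The test was also run on simulated counts with planted changes and the same dispersion for every gene. That checks the code and cannot show that the p-values hold for these samples.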

Additional observations from a re-analysis of the deposited data

How the results depend on the processing

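The direction of each called gene among the 9 was kept in each alternative. Requiring a log2 fold change of at least 1 left 1471 genes in Male against Female (699 higher, 772 lower) and 808 in KD against WT (467 higher, 341 lower), and of the 9 genes 2 (1 higher, 1 lower) and 1 (lower). In the other alternatives that kept all samples, 6 to 7 of the 9 genes were called in each comparison. With a filter at a mean log2 CPM of 1, Klre1 and Klrg1 were not tested, nor was Fcer1g in the Male and Female table. Leaving out 1 sample at a time gave 9190 to 9399 genes called in Male against Female and 6073 to 6685 in KD against WT, with 6 to 7 of the 9 genes in each.

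With the replicate number as a block, 9740 and 6688 genes were called, and 7 of the 9 in each comparison. Deviations of same-numbered samples from their group means correlated on average at -0.0108 in the Male and Female table (-0.0562 to 0.0312) and at -0.0116 in the other (-0.0748 to 0.0274). These values gave no sign of pairing by number. They cannot show that same-numbered samples came from different mice or cultures, and the labels do not say.

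The difference in the Klrc1 to Klrc2 ratio of Male minus Female ran from -0.16 to 0.0715 with 1 sample left out, and was above 0 without Male replicate 1 (0.0652), Male replicate 2 (0.0284) or Female replicate 2 (0.0715). That of KD minus WT ran from 0.516 to 0.628. The Klrg1 difference of Male minus Female ran from -0.0247 to 0.0107 CPM. The uncalled log2 fold change of Klrc1 in KD against WT ran from -0.00447 (without KD replicate 3) to 0.0609 with 1 sample left out. That of Rbpj ran from -0.00673 to 0.0114, and was -0.000522 with no low-count filter, -0.000658 without WT replicate 3 and -0.00673 without KD replicate 3. The cause was not tested. Klrg1 had at most 28 counts per library and Klre1 51 to 181. With counts divided by 4, the edgeR adjusted p of Klre1 was 0.0124 in KD against WT and 0.11 in Male against Female, each on the side of the threshold it had before.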
